A study of Mus musculus with 10 samples.

Results

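The transcripts of 9 secretory peptide genes were followed in mouse cortical neurons under proteasome inhibition. Of these, 6 encode neuropeptides typical of cortical interneurons (Sst, Npy, Cck, Vip, Tac1 and Penk) and 3 encode granins (Chga, Chgb and Scg2). They were chosen by gene symbol, synonyms included, from 8252 named genes, and were read by 13 of the 12422 probe sets on the larger array, after control probe sets were set aside. Of these, 11 were among the 9977 probe sets shared by both array designs, and 9, standing for 8 genes, passed the filter on low signals. The Vip probe set did not pass and is given as values only.

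Primary neocortical neurons of Swiss albino mice, taken at gestation day 15 or 16, were treated on day 5 in vitro. Lactacystin, an inhibitor of the proteasome, was given at 1 µM in serum-free NB medium for 24 h (3 arrays) or 48 h (3 arrays), and control cultures were taken at 24 h (2 arrays) and 48 h (2 arrays). Lactacystin was dissolved in DMSO, and whether the controls received it is not stated. Nothing says that replicates came from separate cultures, so the spread behind each p-value is that of these samples and may be technical. The U74A array was used for 4 samples (replicate 1 at 24 h and replicate 3 at 48 h with lactacystin, and replicate 1 of both control groups), and its revision U74Av2 for the other 6. Any culture batch or processing date that went with the array design cannot be told apart from it. Signals below are scaled intensities in arbitrary units, changes are on the scale log2(signal + 32), and adjusted p-values are from limma with Benjamini-Hochberg adjustment over 6984 probe sets, with a threshold of 0.05.

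Neuropeptides are made as precursors that enter the regulated secretory pathway, are cut by prohormone convertases and are stored in dense-core vesicles until a stimulus releases them. Granins are acidic proteins packed into the same vesicles, where they help to condense the cargo and are themselves cut into peptides. In the cortex, Sst and Vip mark separate classes of inhibitory interneurons, Npy is carried by several of them, and Cck is made by both interneurons and pyramidal cells, whereas granins are made by neurons at large. Several of these genes are textbook targets of CREB, a transcription factor that binds the cAMP response element (CRE) in their promoters. RNA was extracted from whole cultures, so fewer cells of a type and less RNA per cell cannot be told apart.

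The promoters of the 6 genes that passed the threshold in at least 1 comparison are shown because the CRE is a well known element of peptide and granin genes. The sequences are from RefSeq (GRCm38.p6), and each is the 150 bases that end just before the annotated start, 5′ to 3′ on the gene's own strand. They lie at chr16:23890845-23890994 (minus strand) for Sst, chr6:49822560-49822709 (plus) for Npy, chr9:121495695-121495844 (minus) for Cck, chr12:102554791-102554940 (plus) for Chga, chr2:132781492-132781641 (plus) for Chgb and chr1:79440027-79440176 (minus) for Scg2. Capitals mark the half-site TGACG or its reverse complement CGTCA, which overlap to form the full palindrome TGACGTCA.
Sst: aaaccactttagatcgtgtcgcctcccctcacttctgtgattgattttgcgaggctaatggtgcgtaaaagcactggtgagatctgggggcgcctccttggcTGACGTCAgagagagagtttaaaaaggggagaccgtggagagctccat
Npy: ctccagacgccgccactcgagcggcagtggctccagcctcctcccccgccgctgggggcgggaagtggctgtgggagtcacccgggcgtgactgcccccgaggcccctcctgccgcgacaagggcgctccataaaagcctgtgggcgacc
Cck: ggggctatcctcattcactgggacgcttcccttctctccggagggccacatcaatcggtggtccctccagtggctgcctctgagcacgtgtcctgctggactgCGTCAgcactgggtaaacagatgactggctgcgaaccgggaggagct
Chga: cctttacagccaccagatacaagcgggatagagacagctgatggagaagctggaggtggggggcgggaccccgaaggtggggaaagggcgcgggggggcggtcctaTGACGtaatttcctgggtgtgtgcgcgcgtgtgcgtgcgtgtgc
Chgb: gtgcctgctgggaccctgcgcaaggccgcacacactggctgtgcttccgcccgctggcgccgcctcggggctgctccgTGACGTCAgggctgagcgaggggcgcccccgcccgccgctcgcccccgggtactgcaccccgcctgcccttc
Scg2: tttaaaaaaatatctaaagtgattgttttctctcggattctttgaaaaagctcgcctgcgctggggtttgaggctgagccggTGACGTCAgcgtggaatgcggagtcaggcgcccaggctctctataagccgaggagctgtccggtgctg

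Promoters of 8 of the 9 genes were in the table, and that of Penk was not. Over the 250 bases before the start, searched on both strands, the full TGACGTCA was present in 3 of the 8: it began at position -48 in Sst, -72 in Chgb and -68 in Scg2, counted from the base before the start as -1. Of all 32851 promoter windows of the same length, 508 (1.55%) held it. The half-site was found on either strand in 7 of the 8, against 17.8% of all windows. A half-site outside a full palindrome began at -47 in Cck, -44 in Chga and -79 in Vip, and at -197 and -43 in Tac1. Npy had none in this window. These matches describe the letters of the windows and show no binding. The motif was chosen as a known element of such genes, so the excess over all windows is not a separate result.

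At 24 h, Npy, Cck and Chga were lower with lactacystin, and at 48 h Sst, Npy and Cck were. Sst, encoding somatostatin, showed the steepest late fall of the set, and Npy, encoding neuropeptide Y, was already low at 24 h. None of the 8 genes passed as higher at either time. At 24 h, 3 of 8 genes passed, all lower, where 14.9% of all probe sets passed (8.2% higher, 6.66% lower). At 48 h, 3 of 8 passed, all lower, against 10.3% of all probe sets (6.77% higher, 3.57% lower). Without the covariate for array design 1 of 8 genes passed at each time, with all-probe-set counts that shrank as well (172 higher and 76 lower at 24 h, 79 higher and 31 lower at 48 h).

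**Figure D1:**
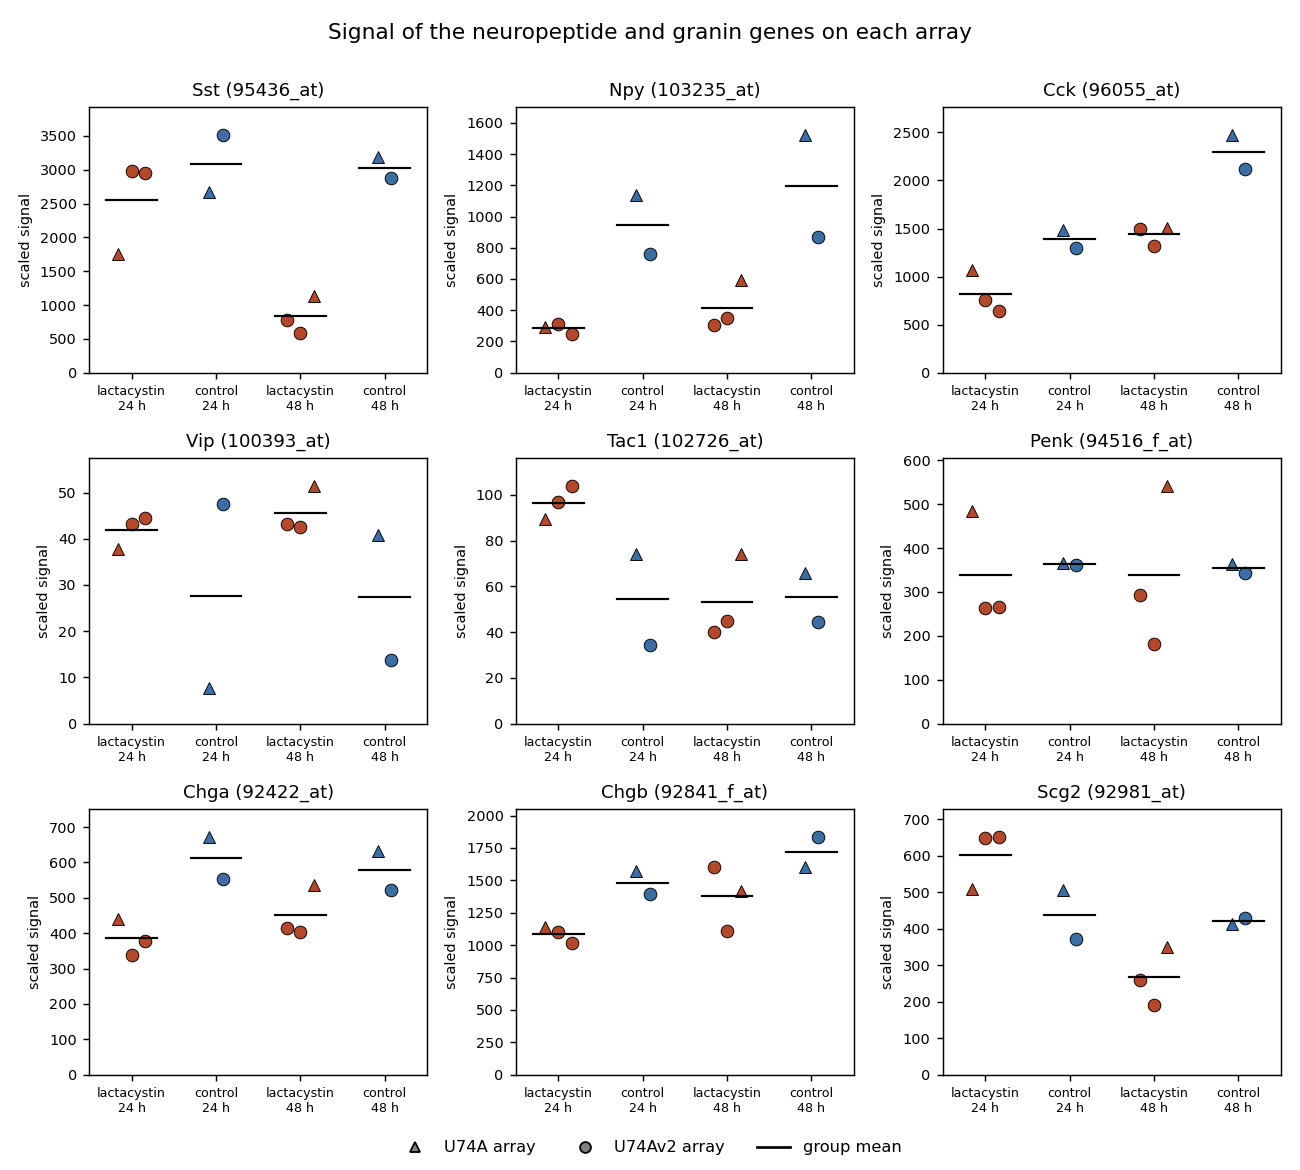
Scaled signal (arbitrary units, linear axes from 0) of the probe set that stands for each gene, by group; each point is 1 array, triangles are U74A and circles U74Av2, and bars are group means. Sst is low on the 3 lactacystin arrays at 48 h only, Npy is low on all 6 lactacystin arrays, and Vip stays between 7.73 and 51.3.

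Sst signals (probe set 95436_at) were 1750, 2975 and 2946 on the lactacystin arrays at 24 h, against 2677 and 3505 on the control arrays, so the groups overlapped across the array designs. Within each design the lactacystin arrays lay below control at 24 h too, at -0.60 on U74A (1 array against 1) and -0.24 on U74Av2 (2 against 1) on the log2 scale. At 48 h the signals were 773.2, 590.9 and 1136 with lactacystin, against 3189 and 2870 in controls. Each lactacystin array at 48 h lay below every other array of the series. The change was -0.31 ± 0.27 (SE) at 24 h, with an adjusted p of 0.482 (-0.40 and 0.0381, a call, in a fit of the 24 h arrays alone), and -1.88 ± 0.27 at 48 h, 0.272-fold of control, with an adjusted p of 0.00164. It ranked 77 by p among the 6984 probe sets at 48 h. Within designs the change at 48 h was -1.46 on U74A and -2.03 on U74Av2. The call at 48 h was kept in 23 of 23 alternative settings, with changes from -2.29 to -1.66. By group mean, lactacystin at 48 h was lowest (833.2 ± 277.3, SD, n = 3), then lactacystin at 24 h (2557 ± 699.5, n = 3), control at 48 h (3030 ± 225.3, n = 2) and control at 24 h (3091 ± 585.4, n = 2). Between neighbours of that order, lactacystin at 48 h differed from lactacystin at 24 h beyond the spread (-1.59 ± 0.24, 48 h minus 24 h, adjusted p = 0.00168), and the 2 control groups did not (-0.02 ± 0.29, adjusted p = 0.996). Lactacystin at 24 h against control at 48 h was not tested.

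Whether the Sst response itself differed between the times was tested as an interaction. The lactacystin effect at 48 h minus that at 24 h was -1.57 ± 0.38, which missed the threshold (adjusted p = 0.0709, unadjusted p = 0.00143). It passed when replicate 1 of lactacystin at 24 h was left out (-1.89, adjusted p = 0.0157) or replicate 3 of lactacystin at 48 h (-1.94, adjusted p = 0.0159). Both are U74A arrays, and each lay nearest to the other time's lactacystin arrays. It also passed with median scaling (-1.76, adjusted p = 0.0292) and with the replicate number as a block (-1.57, adjusted p = 0.0356). Over both times together Sst was lower, at -1.09 ± 0.30 (adjusted p = 0.0245), a call that was lost without replicate 1 of lactacystin at 24 h (-1.04, adjusted p = 0.0804), without replicate 1 of control at 48 h (-0.87, adjusted p = 0.0735) and without replicate 2 of control at 48 h (-0.90, adjusted p = 0.11). The Sst call over both times was also lost on U74Av2 alone (adjusted p = 0.172), without the design covariate (adjusted p = 0.0602) and without the filter (adjusted p = 0.0532), with changes of -1.14, -1.08 and -1.09.

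Npy (103235_at) gave 293.5, 314.3 and 249.2 with lactacystin at 24 h, against 1137 and 759.6 in controls. The values at 48 h were 305.5, 349.4 and 590.8 with lactacystin, against 1519 and 870.5. The groups did not overlap at either time, and the lowest control array exceeded the highest lactacystin array of the series. The change was -1.52 ± 0.18 at 24 h (0.35-fold, adjusted p = 0.000333) and -1.37 ± 0.18 at 48 h (0.388-fold, adjusted p = 0.00106). The effects at the 2 times differed by 0.15 ± 0.26 (95% interval -0.42 to 0.71, adjusted p = 0.811). Within designs the change was -1.84 on U74A and -1.34 on U74Av2 at 24 h, and -1.32 and -1.33 at 48 h. The call at 24 h was kept in 23 of 23 alternatives and that at 48 h in 21 of 23; it missed the threshold without the design covariate (adjusted p = 0.0535) and on the U74Av2 arrays alone (adjusted p = 0.0516). Over both times Npy had the smallest p of the 8 genes, at -1.44 ± 0.13 (adjusted p = 2.41e-05).

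Cck (96055_at), which encodes cholecystokinin, gave 1065, 751.5 and 644.0 with lactacystin at 24 h, against 1482 and 1296 in controls. After 48 h the signals were 1498, 1314 and 1509 with lactacystin, against 2468 and 2119 in controls. The groups did not overlap at either time, but the lactacystin arrays at 48 h were at the level of the controls at 24 h. The change was -0.72 ± 0.14 at 24 h (0.608-fold, adjusted p = 0.0058) and -0.61 ± 0.14 at 48 h (0.655-fold, adjusted p = 0.0182). Cck was the only one of the 8 genes that passed as higher at 48 h than at 24 h among lactacystin arrays, by 0.82 ± 0.12 (adjusted p = 0.00175). The controls changed by 0.71 ± 0.15 in the same interval, which missed the threshold (adjusted p = 0.433, unadjusted p = 0.000573), and the interaction was 0.11 ± 0.19 (95% interval -0.32 to 0.53, adjusted p = 0.824). The Cck calls were lost in several alternatives while the changes moved little. At 24 h the adjusted p was 0.0987 without replicate 2 of control (-0.65) and 0.0703 without the design covariate (-0.76). At 48 h it was 0.0655 without replicate 3 of lactacystin, 0.0926 without replicate 1 of control and 0.177 without replicate 2 of control, with changes between -0.69 and -0.51 whichever array was left out, and it was 0.157 without the covariate (-0.66) and 0.121 on U74Av2 alone (-0.58).

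The remaining peptide genes did not pass at either time. Tac1 (102726_at), encoding the precursor of substance P, gave 89.5, 96.9 and 103.7 with lactacystin at 24 h, against 74.3 and 34.4 in controls. At 48 h it gave 40.3, 44.9 and 74.1, against 65.9 and 44.5. All 3 lactacystin arrays at 24 h lay above every other array, and the change there was 0.67 ± 0.23 (adjusted p = 0.0727). It passed without replicate 1 of lactacystin at 24 h (0.91, adjusted p = 0.0343). At 48 h the change was 0.01 ± 0.23 (adjusted p = 0.988), and lactacystin at 48 h minus lactacystin at 24 h was -0.62 ± 0.20 (adjusted p = 0.0727), or -0.83 with an adjusted p of 0.0289 without the same array. These signals are within a few times the pseudocount of 32, and the log2 changes understate ratios at that level. The group means were 54.4 (control at 24 h), 53.1 (lactacystin at 48 h) and 55.2 (control at 48 h), close to the filter limit of 54.8. With lactacystin at 24 h the mean was 96.7. Tac1 thus passed the filter mainly through the group where it was high. Its comparisons with that group are therefore not independent of the filter.

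Penk, the proenkephalin gene, gave 484.9, 262.8 and 266.3 with lactacystin at 24 h, against 365.4 and 361.5 in controls, on its brightest probe set, 94516_f_at. The 48 h values were 291.9, 181.8 and 540.1 with lactacystin, against 364.3 and 343.8. The controls lay between the lactacystin arrays at both times. Its changes were -0.05 ± 0.26 at 24 h (adjusted p = 0.917) and -0.08 ± 0.26 at 48 h (adjusted p = 0.889). Within the U74A arrays lactacystin was above control, by 0.38 at 24 h and 0.53 at 48 h, and within U74Av2 it was below control, at -0.41 and -0.51, so the small pooled values are averages of opposite signs. That probe set carries the suffix _f, by which Affymetrix marks probes shared by a gene family, as do the main Chgb probe set and a second one of Chga described below. Another Penk probe set, 94517_r_at, gave 60.9, 67.8 and 37.8 with lactacystin against 60.4 and 14.4 in controls at 24 h, and 39.4, 55.1 and 99.9 against 86.7 and 58.2 at 48 h. Its changes were 0.49 ± 0.26 (adjusted p = 0.237) and -0.05 ± 0.26 (adjusted p = 0.939). A further one, 161164_r_at, is on U74Av2 only and stayed between 2.20 and 17.3.

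Vip (100393_at), encoding vasoactive intestinal peptide, gave 37.8, 43.1 and 44.5 with lactacystin at 24 h, against 7.73 and 47.5 in controls. The signals at 48 h were 43.2, 42.5 and 51.3 with lactacystin, against 40.8 and 13.8, and all 3 lay above both controls. Its mean fell under the filter limit of 54.8, and it was not tested in the comparison of all 10 arrays. Fitted without a filter on the U74Av2 arrays alone (2 lactacystin against 1 control at each time), the change was -0.07 ± 0.20 at 24 h (adjusted p = 0.9) and 0.71 ± 0.20 at 48 h (adjusted p = 0.164). In that fit 2.95% and 0.853% of 12422 probe sets passed at 24 h and 48 h.

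Among the granins, Chga, encoding chromogranin A, was lower at 24 h. It gave (92422_at) 438.9, 339.7 and 377.4 with lactacystin at 24 h, against 670.6 and 553.8 in controls. At 48 h it gave 415.8, 402.8 and 536.0, against 633.3 and 521.3. The groups were apart at 24 h and overlapped at 48 h through replicate 3 of lactacystin, a U74A array. The change was -0.58 ± 0.12 at 24 h (0.67-fold, adjusted p = 0.00799) and -0.29 ± 0.12 at 48 h (adjusted p = 0.155). The difference between the times was 0.29 ± 0.17 (95% interval -0.08 to 0.65, adjusted p = 0.424). The call at 24 h was lost without replicate 2 of control at 24 h (-0.56, adjusted p = 0.0908), on U74Av2 alone (-0.59, adjusted p = 0.0979) and without the design covariate (-0.63, adjusted p = 0.103). With median scaling Chga passed at 48 h too (-0.45, adjusted p = 0.0335). A second Chga probe set on U74Av2 only, 162192_f_at, gave 108.9 and 137.7 with lactacystin against 296.0 in the control at 24 h, and 142.8 and 177.0 against 315.2 at 48 h. It carries the suffix _f. Its changes of -1.08 (adjusted p = 0.0853) and -0.86 (adjusted p = 0.152) ran the same way, with 1 control array at each time.

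Chgb, encoding chromogranin B, was read by a probe set of the same suffix, 92841_f_at, and gave 1142, 1102 and 1020 with lactacystin at 24 h, against 1570 and 1391 in controls. After 48 h the signals were 1607, 1108 and 1420 with lactacystin, against 1601 and 1831. The groups were apart at 24 h and touched at 48 h through replicate 1 of lactacystin. The changes were -0.42 ± 0.15 (adjusted p = 0.0839) and -0.31 ± 0.15 (adjusted p = 0.225). At 24 h the call was reached without replicate 2 of lactacystin at 48 h, an array of the other time that enters the shared spread (-0.43, adjusted p = 0.0328), and in a fit of the 24 h arrays alone (-0.41, adjusted p = 0.0265). Over both times Chgb was lower, at -0.37 ± 0.11 (adjusted p = 0.0372). That call held in 9 of 22 alternatives. It was lost without any 1 of 8 arrays, namely all but replicate 1 of either group at 48 h, with adjusted p-values up to 0.125 and changes from -0.39 to -0.32. A second Chgb probe set, 92842_r_at, stayed between 14.2 and 27.7 and was not tested.

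Scg2 (92981_at), encoding secretogranin II, the precursor of secretoneurin, lay on opposite sides of control at the 2 times. It gave 508.7, 648.6 and 649.7 with lactacystin at 24 h, against 506.1 and 371.1 in controls. The values at 48 h were 258.9, 191.7 and 350.9 with lactacystin, against 412.5 and 428.3. All lactacystin arrays were above the controls at 24 h, replicate 1 by a narrow margin, and all were below them at 48 h. Neither change passed against control, at 0.46 ± 0.21 (adjusted p = 0.167) and -0.61 ± 0.21 (adjusted p = 0.0931). The fall between the lactacystin groups passed, at -1.11 ± 0.19 (48 h minus 24 h, 0.463-fold, adjusted p = 0.00309), and did so in 22 of 22 alternatives. The controls differed by -0.04 ± 0.23 over the same interval (adjusted p = 0.99), and the interaction of -1.07 ± 0.29 did not pass (adjusted p = 0.109). Without replicate 1 of lactacystin at 24 h, a U74A array, the 24 h change passed (0.72, adjusted p = 0.0456), as did the interaction (-1.29, adjusted p = 0.0301). Without replicate 3 of lactacystin at 48 h, also U74A, the 48 h change passed (-0.84, adjusted p = 0.0328). Within U74A the changes were 0.01 and -0.22, and within U74Av2 0.76 and -0.85.

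**Figure D2:**
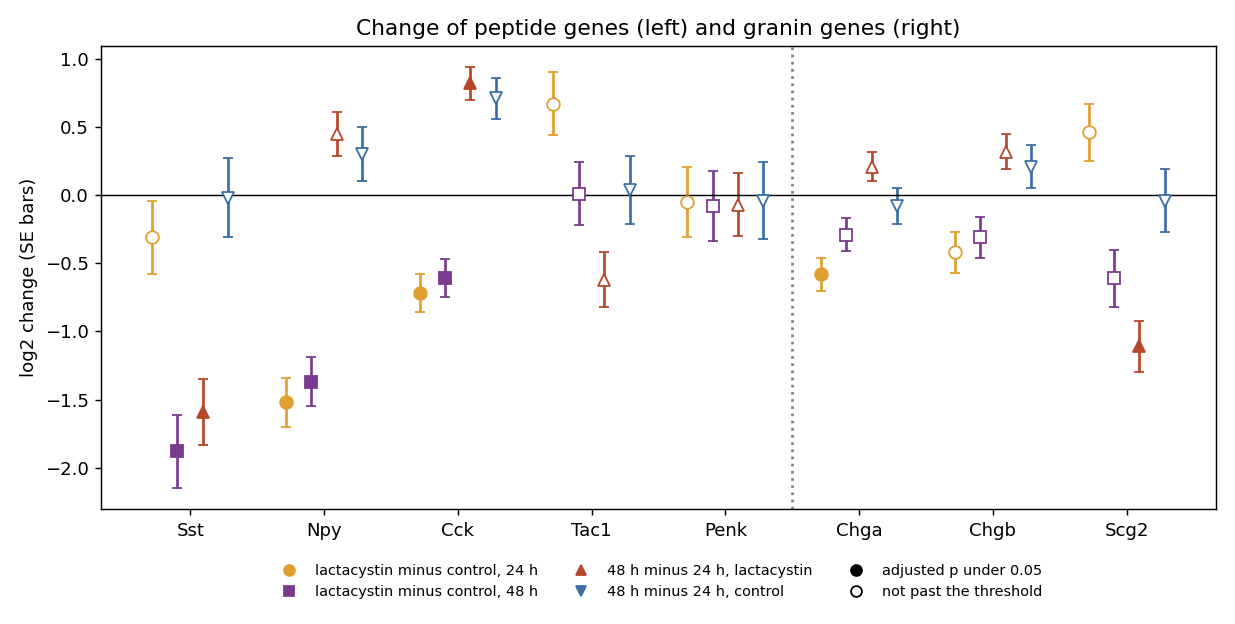
Log2 change with its SE for the 8 tested genes, peptides left and granins right of the dotted line, in 4 comparisons (lactacystin minus control at 24 h and at 48 h, and 48 h minus 24 h within lactacystin and within control); filled symbols have an adjusted p under 0.05. Sst and Scg2 have filled symbols below 0 for lactacystin at 48 h minus 24 h while their control values lie near 0, and Cck has values above 0 in both groups.

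The course of time in the lactacystin arrays was tested for all 8 genes. Sst and Scg2 were lower and Cck higher at 48 h than at 24 h, 3 of 8, where 11.6% of all probe sets passed (6.19% higher, 5.38% lower). In controls 0 of 6984 probe sets passed between the times in limma (0% called). At an unadjusted p under 0.05 there were 391, among them Cck alone of the probe sets that stand for the 8 genes. The second Penk probe set, 94517_r_at, was also among them (0.66 ± 0.29, unadjusted p = 0.0405). The lactacystin groups hold 3 arrays each and the control groups 2, so the 2 comparisons differ in precision. For the interaction 0 of 8 genes passed in limma, where 1.23% of all probe sets passed (0.415% higher, 0.816% lower). An unadjusted p under 0.05 was found for 2 of the 8 (Sst and Scg2) and for 1132 of the 6984 probe sets. Over both times together 5 of 8 genes were lower (Sst, Npy, Cck, Chga and Chgb), where 17% of all probe sets passed (9.52% higher, 7.52% lower), with Cck at -0.66 ± 0.10 (adjusted p = 0.00108), Chga at -0.43 ± 0.10 (adjusted p = 0.00954) and Scg2 at -0.07 ± 0.21 (adjusted p = 0.858). In data simulated for the interaction, 2.99% of 1.5-fold, 53.7% of 2-fold and 86.4% of 4-fold differences were recovered.

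Peptides and granins were set side by side by counts and medians, with no test, since their members were chosen with results in view. At 24 h the 5 tested peptide genes had a median change of -0.31 (range -1.52 to 0.67), with 2 lower, and the 3 granins -0.42 (-0.58 to 0.46), with 1 lower. At 48 h the peptides had -0.61 (-1.88 to 0.01), with 3 lower, and the granins -0.31 (-0.61 to -0.29), with 0 passing in limma. Among the granins 2 (Chga and Scg2) had an unadjusted p under 0.05 at 48 h, as did 1731 of all 6984 probe sets. The median over all 6984 probe sets was -0.03 at 24 h and 0.04 at 48 h. The peptide changes were spread over a wider range than those of the granins at both times, but a range tends to widen with more genes (5 against 3). The upper end of the peptide range at 24 h was Tac1 (0.67), a gene near the filter limit. By non-overlap of the scaled signals, Npy, Cck, Chga and Chgb were below control on all arrays at 24 h (4 of 8, against 18.9% of all probe sets) and Tac1 and Scg2 above (2 of 8, against 17.2%). Tac1 passed the filter mainly through the lactacystin arrays at 24 h, so its place in that count is not independent of the filter. At 48 h Sst, Npy, Cck and Scg2 were below (4 of 8, against 9.87%) and none of the 8 above (against 16.6%).

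For each array, the mean log2 signal of the 5 peptide genes minus that of the 3 granin genes was taken. Only differences between arrays can be read from it, since signals of separate probe sets are not on 1 scale. It was -0.35, -0.40 and -0.50 with lactacystin at 24 h, against -0.22 and -0.15 in controls. The differences at 48 h were -0.59, -0.46 and -0.22 with lactacystin, against 0.14 and -0.17. Every lactacystin array was below the controls of its time, with replicate 3 of lactacystin at 48 h closest to them. Single genes weigh heavily in means of so few. At 24 h the peptide changes ran from -1.52 (Npy) to 0.67 (Tac1). Their median at that time was -0.31, and that of the granins was lower, at -0.42. At 48 h Sst (-1.88) and Npy (-1.37) had the lowest changes of the peptides. The score without single genes was not computed. The granin mean alone was 9.39, 9.37 and 9.38 with lactacystin at 24 h, against 9.72 and 9.44 in controls, and 9.22, 8.91 and 9.41 against 9.62 and 9.61 at 48 h. The granin means, too, were below those of the controls at both times.

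**Figure D3:**
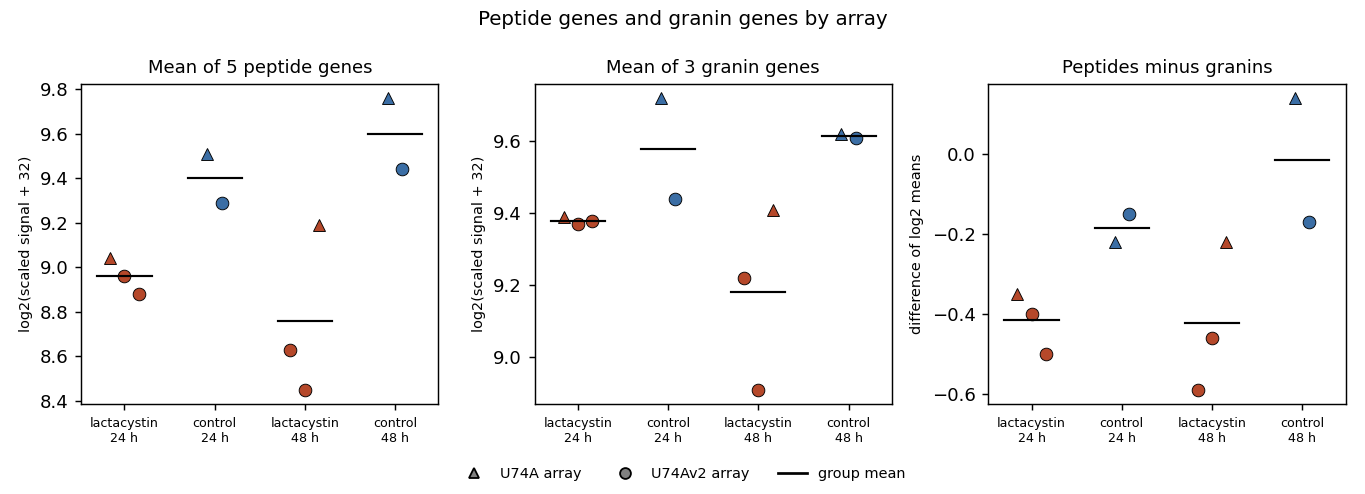
Mean log2(scaled signal + 32) of the 5 tested peptide genes (left), of the 3 granin genes (middle) and their difference (right), by group; points are arrays, triangles U74A and circles U74Av2, bars group means, and the axes do not start at 0. The difference runs from -0.59 to -0.22 on the lactacystin arrays and from -0.22 to 0.14 on the control arrays.

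Scaling bore on the 48 h values. Scaling to the median in place of the trimmed mean moved the median change of all probe sets at 48 h to -0.11, against 0.04, and the calls to 286 higher and 636 lower (31% higher), against 473 and 249 (65.5% higher). With it 5 of 8 genes passed at 48 h, Chga and Scg2 (-0.77, adjusted p = 0.0332) being added. For lactacystin at 48 h minus 24 h the share of calls that were higher was 29.8% with median scaling, against 53.5%, for the interaction 11.2%, against 33.7%, and over both times 39.2%, against 55.9%. Under that scaling Sst changed by -2.05, Npy by -1.53 and Cck by -0.77 at 48 h, all past the threshold.

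The genes that process, store and sense peptides were read from lists, whose counts stand against 14.9% of all probe sets passing at 24 h (8.2% higher, 6.66% lower) and 10.3% at 48 h (6.77% higher, 3.57% lower). Of 11 tested genes of peptide processing and dense-core vesicles, 1 passed, as higher, at 24 h (median -0.18) and 1, as lower, at 48 h (median -0.04), which is near the share of all probe sets. The one at 24 h was Ptprn, encoding the vesicle membrane protein IA-2, at 1.44 ± 0.16 (adjusted p = 0.000142). At 48 h its change was 0.08 ± 0.16 (adjusted p = 0.808), and the difference between the times passed (-1.35 ± 0.22, adjusted p = 0.013). At 48 h the lower one was Cadps, encoding a priming factor for vesicle release, at -0.56 ± 0.13 (adjusted p = 0.0189). Pcsk1n, encoding the prohormone convertase inhibitor proSAAS, had -0.66 ± 0.25 (adjusted p = 0.131), Resp18 -0.44 ± 0.22 (adjusted p = 0.249) and Ptprn2, the relative of Ptprn, 0.20 ± 0.23 (adjusted p = 0.668). Cpe, encoding the carboxypeptidase that trims cut peptides, had -0.13 ± 0.09 at 24 h (adjusted p = 0.35) and 0.06 ± 0.09 at 48 h (adjusted p = 0.741).

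Of 9 tested precursors of other neuropeptides, 0 passed in limma at 24 h (median 0.06) and 0 at 48 h (median -0.02). Of all probe sets, 14.9% and 10.3% passed. At an unadjusted p under 0.05 there was 1 of the 9 at each time. Of all 6984 probe sets, 2051 had such a p at 24 h and 1731 at 48 h. Adcyap1, encoding the peptide PACAP, had -0.58 ± 0.24 at 24 h (adjusted p = 0.136) and -0.63 ± 0.24 at 48 h (adjusted p = 0.127), and passed as lower over both times (-0.61 ± 0.17, adjusted p = 0.0285). Pomc had 0.50 ± 0.38 at 48 h (adjusted p = 0.476) and Edn1 0.50 ± 0.25 (adjusted p = 0.237). Of 8 tested peptide receptors, 1 passed, as lower, at 24 h (median -0.28) and 0 passed in limma at 48 h (median -0.26). These stand against the same 14.9% and 10.3%. At 48 h 1 of the 8 had an unadjusted p under 0.05, where 1731 of all 6984 probe sets did. The one at 24 h was Npy1r, which binds neuropeptide Y, at -1.19 ± 0.24 at 24 h (adjusted p = 0.0074) and -0.74 ± 0.24 at 48 h (adjusted p = 0.0774). Sstr2, a somatostatin receptor, had -0.58 ± 0.29 at 48 h (adjusted p = 0.242).

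Other genes of GABAergic interneurons were read alongside, since Sst, Npy and Vip belong to these cells. Of 17 tested, 3 passed at 24 h (median -0.37) and 2 at 48 h (median -0.17), all lower, where 14.9% and 10.3% of all probe sets passed and 6.66% and 3.57% passed as lower. At 24 h these were Calb2, encoding calretinin (-1.14 ± 0.15, adjusted p = 7e-04), Satb1, a transcription factor of maturing interneurons (-0.64 ± 0.14, adjusted p = 0.00939), and Lhx6, a transcription factor of the lineage that gives rise to Sst cells (-0.55 ± 0.13, adjusted p = 0.0177). At 48 h they were Slc32a1, the vesicular GABA transporter (-1.07 ± 0.25, adjusted p = 0.0189), and Calb1, encoding calbindin (-0.86 ± 0.25, adjusted p = 0.0481). Gad1 and Gad2, the enzymes of GABA synthesis, had -0.18 ± 0.12 (adjusted p = 0.391) and 0.15 ± 0.35 (adjusted p = 0.853) at 48 h. Sox6, which acts in the same lineage, had 0.75 ± 0.22 (adjusted p = 0.0538), and Reln -0.89 ± 0.36 (adjusted p = 0.147). Summed over the 19 measured genes of the list, the signal ran from 7125 to 11661 with lactacystin at 24 h, against 10166 to 14870 in controls, and from 7609 to 13059 at 48 h, against 10364 to 13586, so the ranges overlapped at both times across the array designs. Within each design every lactacystin array had the lower sum, with 11661 against 14870 on U74A and 7227 and 7125 against 10166 on U74Av2 at 24 h, and 13059 against 13586 and 7609 and 7740 against 10364 at 48 h.

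Genes of CREB signalling and neuronal activity were read as a further list. Of 12 tested, 2 passed at 24 h (median 0.25) and 1 at 48 h (median 0.06), all higher, where 8.2% and 6.77% of all probe sets passed as higher. The number passing as lower was 0 at both times in limma, where 6.66% and 3.57% of all probe sets passed as lower. At an unadjusted p under 0.05, 4 of the 12 were higher and 0 lower at 24 h, and 1 higher and 1 lower at 48 h. In either direction, 2051 of all 6984 probe sets had such a p at 24 h and 1731 at 48 h. Egr1, an immediate early gene, was higher at 24 h (1.01 ± 0.21, adjusted p = 0.00799) and at 48 h (0.74 ± 0.21, adjusted p = 0.0439), and Dusp1, a phosphatase acting on MAP kinases, at 24 h (0.48 ± 0.14, adjusted p = 0.0446). Creb1 itself had 0.33 ± 0.21 at 48 h (adjusted p = 0.369), and Homer1 -0.50 ± 0.23 (adjusted p = 0.194). Among lactacystin arrays 2 of the 12 were lower at 48 h than at 24 h, where 5.38% of all probe sets were: Bdnf, a neurotrophin gene (-0.83 ± 0.17, adjusted p = 0.00857), and Dusp1 (-0.60 ± 0.13, adjusted p = 0.0121).

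Several general neuron markers were lower in the same samples. All 10 measured neuron markers passed the filter, whereas Camk2a, a marker of mature excitatory neurons, stayed between 5.48 and 26.9 and was not tested. Of the 10, 4 passed at 24 h (median -0.42) and 3 at 48 h (median -0.41), all lower, where 6.66% and 3.57% of all probe sets passed as lower. Stmn2, a growth cone protein, had -0.74 ± 0.11 at 24 h (adjusted p = 0.00107) and -0.57 ± 0.11 at 48 h (adjusted p = 0.00681). Gap43 had -0.56 ± 0.09 (adjusted p = 0.00345) and Snap25 -0.55 ± 0.15 (adjusted p = 0.0381) at 48 h. Not all members lay below control: Nefm, a neurofilament gene, had 0.41 ± 0.27 at 24 h (adjusted p = 0.348) and 0.43 ± 0.27 at 48 h (adjusted p = 0.373), and Eno2, neuronal enolase, 0.19 ± 0.14 at 24 h (adjusted p = 0.402) and -0.40 ± 0.14 at 48 h (adjusted p = 0.106). The summed signal of the 10 ran from 14829 to 20188 with lactacystin at 24 h, against 21997 to 28852 in controls, and from 16243 to 25279 at 48 h, against 26226 to 31149. The groups did not overlap in that sum at either time. The sum is mostly a reading of Stmn2 and Gap43, with mean signals of 9808 and 5985 over all arrays. Nefl (129.7) and Nefm (130.9) hardly enter it. Of 5 tested markers of glutamatergic cortical neurons, 2 passed at 24 h (median -0.35) and 3 at 48 h (median -0.46), all lower, among them Neurod1 at 48 h (-0.99 ± 0.21, adjusted p = 0.0119). Across both lists the lowest change was -1.48 at 24 h (Syt1, ± 0.43, adjusted p = 0.0379) and -0.99 at 48 h (Neurod1), against -1.52 for Npy at 24 h and -1.88 and -1.37 for Sst and Npy at 48 h. Syt1 signals ran from 50.4 to 2655 over all arrays. Outside these lists, a marker of astrocytes and radial glia had a lower change at 24 h (-1.89) than Npy. The part of the neuron marker changes in those of the peptides and granins was not tested.

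Markers of non-neuronal cells were also measured, and their counts stand against 8.2% of all probe sets higher and 6.66% lower at 24 h, and 6.77% and 3.57% at 48 h. Of 7 tested markers of astrocytes and radial glia, 1 was higher and 3 lower at 24 h (median -0.48), and 2 passed at 48 h, both higher (median 0.56), Gfap at 1.40 ± 0.15 (adjusted p = 0.000328) and Gja1 at 0.90 ± 0.16 (adjusted p = 0.00471). The summed signal of the 8 measured, S100b included though it was under the filter, ran from 13375 to 21418 with lactacystin at 24 h, against 16703 to 24908 in controls, and from 24157 to 30594 at 48 h, against 19084 to 26982. Of 6 tested microglia and macrophage markers, 1 was higher at 24 h (median -0.04) and 3 at 48 h (median 0.47), with Cd68 at 1.47 ± 0.27 (adjusted p = 0.0061), while Itgam, Ptprc and Aif1 were under the filter. The sum of the 10 measured markers ran from 735 to 1414 with lactacystin at 24 h, against 600 to 884 in controls, and from 995 to 1594 at 48 h, against 517 to 1065. Of 8 tested fibroblast and mural markers, 1 was higher at 24 h (Tagln, 1.24 ± 0.27, adjusted p = 0.0096, with a list median of -0.37) and 2 at 48 h (median 0.21), Tagln (2.12 ± 0.27, adjusted p = 0.00068) and Acta2 (2.10 ± 0.33, adjusted p = 0.00247). The sum of the 9 measured ran from 1984 to 3269 with lactacystin, against 1903 to 1932 in controls, at 24 h and from 2795 to 4596, against 1825 to 1836, at 48 h. Acta2 and Tagln, with mean signals of 718.8 and 546.1 over all arrays, weigh heavily in that sum. The list median of -0.37 at 24 h ran the other way. Of the tested oligodendrocyte (2), endothelial (2) and erythroid (1) markers, 0 passed at either time in limma, and Mog, Cdh5 and Alas2 were under the filter. Of those tested, 1 (Kdr, endothelial, at 48 h) had an unadjusted p under 0.05, where 1731 of all 6984 probe sets did at that time. The part of these shifts in the peptide and granin changes was not tested.

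**Figure D4:**
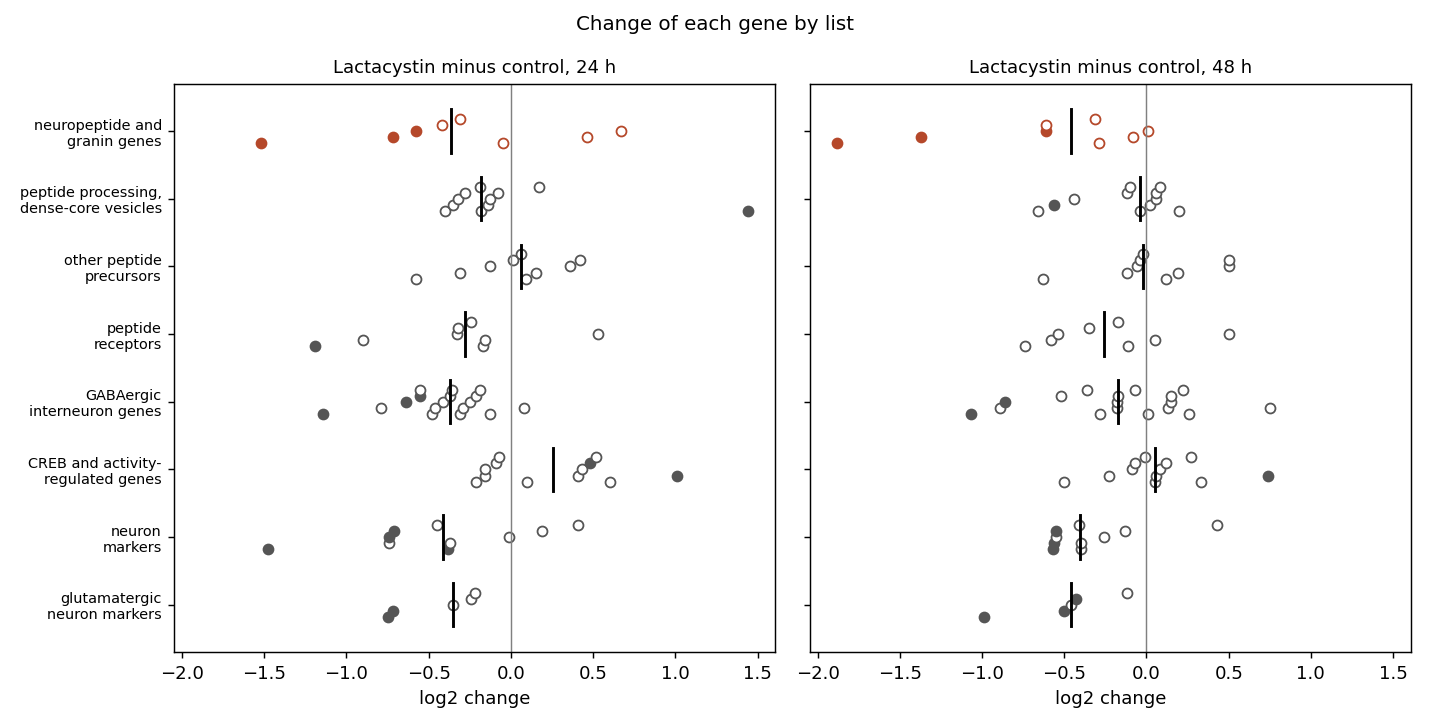
Log2 change of each tested gene at 24 h (left) and 48 h (right) by list, with the 8 neuropeptide and granin genes in the top row in red; filled points have an adjusted p under 0.05 and vertical bars are list medians. At 48 h Sst and Npy lie to the left of every gene in the other rows.

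Patterns were compared gene by gene over the 10 arrays, as descriptions, after the array design was taken out. The arrays share treatment and time, so genes that respond alike correlate. Among the 8 genes, Npy and Chga had the highest Pearson r (0.92), then Cck and Chgb (0.87) and Sst and Scg2 (0.80). Close behind were Chga and Chgb (0.77), Tac1 and Scg2 (0.76) and Npy and Cck (0.75). Pairs of a peptide with a granin were not alike as a class, with Tac1 and Chga at -0.71 and Cck and Scg2 at -0.57. Tac1 ran against Cck (-0.83). Of the 5540 other named genes, the 2 most like Sst were Atf4 (r = 0.98; changes of -0.12 at 24 h and -0.99 at 48 h) and Yars (0.96; 0.08 and -0.66). Those most like Npy were Scd2 (0.99; -0.67 and -0.53) and Cmip (0.98; -0.43 and -0.45), and those most like Scg2 were Lysmd2 (0.98) and Vapa (0.97). Cck was most like Ank and Idh3a (0.97 each), Chga most like Nsg1 (0.98) and Ldb2 (0.97), and Chgb most like Plxnd1 and Agfg1 (0.97 each). Tac1 was most like Hsph1, a chaperone gene (0.99; 1.19 and -0.17), and Tsr1 (0.98). Penk had no gene above 0.88 (Sgf29).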

How the data were processed

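Total RNA was labelled and hybridised to Affymetrix U74A or U74Av2 arrays, 1 per sample. The deposited values are linear intensities that summarise each probe set, and the submitters' processing notes name MAS5, whose version, like any genome build, is not given in the sources used here. The 2 designs are separate deposited tables of 10043 and 12488 probe sets. Detection calls were not used here. Precision is limited by how few arrays there are.

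The signals of the 9977 shared probe sets, without 66 controls, were scaled on each array to a 2% trimmed mean of 500, 32 was added and log2 was taken, which understates the change of low genes. On each array 19.9% to 27.8% of values lay under 32. The lowest 30% of probe sets by mean (under 54.8) were left out and 6984 were tested. Names came from the platform annotation, updated through a RefSeq gene table, which gives 1 symbol for 8724 of the shared probe sets, several for 346 and none for 907, and the brightest probe set stood for its gene.

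The 4 groups were fitted together in limma 3.58.1 (R 4.3.3; lmFit, eBayes with trend, two-sided) with array design as covariate, leaving 5 residual degrees of freedom, or 6 over both times with time and design as covariates. On simulated data with 200 of 6984 probe sets changed, the 24 h comparison found 34.3% of the 1.5-fold changes, 76.1% of the 2-fold ones and 97% of the 4-fold ones (4.83% of calls false), and that at 48 h 34.3%, 74.6% and 98.5% (0.719% false). The members and lists were chosen with earlier results of these data known. Of each list, the text names from the 4 genes with the largest absolute change at 48 h; Ptprn at 24 h, Cpe, Calb2, Satb1, Lhx6, Gad1, Gad2, Dusp1, Bdnf, Nefm, Eno2 and Syt1 were added after their values were seen. The deviations of same-numbered arrays had r of -0.27 and -0.20 at 24 h and 0.09 and -0.08 at 48 h. With 2 control arrays at each time, the control deviations from their group mean mirror each other, so these values could hardly show pairing. Replicate numbers were not used for pairing in the main fit, and a block of them is among the alternatives. Alternatives were other pseudocounts, scalings, filters and variance models, no design covariate, U74Av2 alone, a replicate block, 1 time alone, other probe sets and each array left out in turn.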

Additional observations from a re-analysis of the deposited data

Results flagged for a closer look

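The lactacystin effect on Scg2 at 48 h minus that at 24 h was -1.07 ± 0.29 on the log2 scale. It is listed because all 3 lactacystin arrays lay above both controls at 24 h and all 3 below both controls at 48 h. Of all probe sets, 17.2% lay above in this way at 24 h and 9.87% below at 48 h. The share that did both is not given here. The test of the difference itself, limma's interaction term, gave an adjusted p of 0.109 over all probe sets. The margin at 24 h was narrow on U74A, where replicate 1 of lactacystin gave 508.7 and replicate 1 of control 506.1.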

How the results depend on the processing

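Of the values for single genes, 968 kept direction and side of the threshold under the alternatives, 34 lost and 19 gained a call, and 51 changed sign, none of them in a called value. The number of the 8 genes past the threshold at 24 h (3) was 1 without the design covariate, 5 on the 24 h arrays alone and 1 to 5 with 1 array left out. At 48 h (3) it was 5 with median scaling, 1 without the covariate, 1 on U74Av2 alone and 2 to 3 with 1 array left out. For the interaction (0) it was 1 with median scaling, 1 with the replicate block and 0 to 2 with 1 array left out, and over both times (5) it was 3 without a filter, 2 without the covariate, 2 on U74Av2 alone and 3 to 5 with 1 array left out. With the replicate block Sst passed in the interaction (-1.57, adjusted p = 0.0356), Chgb was lost over both times (-0.39, adjusted p = 0.0953) and no other call of the 8 genes changed. Fewer samples or genes enter several of these alternatives; the cause was not tested otherwise.

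The values that changed sign had not passed the threshold. Tac1 at 48 h was -0.14 with quantile normalization, -0.10 with median scaling, -0.05 without the covariate, -0.04 on U74Av2 and -0.07 with the replicate block. In the interaction, median scaling gave Npy -0.03, Cck -0.08 and Chgb -0.08, and U74Av2 gave Chgb -0.07. Between control times, Penk was 0.02 with quantile normalization, median scaling gave Sst 0.08, Penk 0.06, Chga 0.01 and Scg2 0.05, and U74Av2 gave Scg2 0.19. The second Penk probe set gave 0.49 at 24 h, 0.11 between lactacystin times, 0.66 between control times and 0.22 over both times. With 1 array left out, the ranges that crossed 0 were, at 24 h, Sst -0.50 to 0.06 and Penk -0.38 to 0.32; at 48 h, Tac1 -0.08 to 0.06 and Penk -0.38 to 0.25; in the interaction, Npy -0.07 to 0.31, Cck -0.01 to 0.25, Penk -0.38 to 0.32 and Chgb -0.04 to 0.26; between lactacystin times, Penk -0.32 to 0.19; between control times, Sst -0.23 to 0.19, Tac1 -0.18 to 0.26, Penk -0.39 to 0.32 and Scg2 -0.21 to 0.13; over both times, Penk -0.21 to 0.07 and Scg2 -0.31 to 0.15. With 2 control arrays at each time, leaving out 1 leaves a lone array that is assumed to vary like the other groups.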
